A study of Mus musculus with 56 samples.

Results

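The 9 hepatocyte identity transcription factors Hnf4a, Foxa1, Foxa2, Foxa3, Cebpa, Nr1i2, Nr1i3, Nr5a2 and Prox1 were followed in mouse liver RNA. They are the rows of the deposited count table whose gene symbol is one of these 9 names, out of 21935 genes in all, and all 9 were among the 14105 genes kept for testing (at least 5 reads in at least 3 mice). Male C57BL/6J mice arrived at 5 to 6 weeks of age and ate either chow or the AMLN diet (high in fat, with added fructose and cholesterol) for 36 weeks before 8 weeks of once-daily subcutaneous dosing. AMLN-fed (DIO-MASH) mice entered the study after a liver biopsy and were dosed with vehicle, zalfermin at 0.05 mg/kg (low) or 0.2 mg/kg (high), semaglutide at 3 µg/kg (low) or 120 µg/kg (high), or zalfermin 0.05 mg/kg with semaglutide 3 µg/kg (combination), while chow-fed mice received vehicle. Each of the 7 groups held 8 mice. Zalfermin mimics FGF21, a metabolic hormone, with prolonged action. Semaglutide activates the receptor of GLP-1. The design text beside the counts gives the combination as both high doses, whereas the study's methods give both low doses, which are the doses used here.

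Hepatocytes keep their identity through a network of transcription factors that bind together at the enhancers of liver genes and regulate one another. FOXA proteins open chromatin as pioneer factors, HNF4α and C/EBPα hold the mature metabolic and secretory program in place, and several nuclear receptors couple that program to bile acids, drugs and lipids. Loss of HNF4α activity is a known feature of advanced chronic liver disease.

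Total reads on genes ran from 5228187 to 20885786 per mouse, with a median of 12206788, and the members rested on 69 to 14893 reads per mouse. Expression is given as CPM, the reads of a gene scaled to a common library size with edgeR's TMM factors. Low-dose semaglutide mouse 6 stood apart from its group, with a mean Spearman correlation across genes of 0.967 with the other mice against 0.981 to 0.986 among these, and chow mouse 8 did so with 0.947 against 0.970 to 0.977. The study excluded 1 low-dose semaglutide sample that the count table does not mark, so all 56 mice were used. Calls of the members that rest on low-dose semaglutide mouse 6 or chow mouse 8 are given without that mouse as well. The calls of gene lists and cell type markers were not repeated without them. The sample numbers in the labels fell into 4 runs of neighboring numbers, called number series A to D here, and what separates them is not stated. Series D held 2 chow-fed mice and 1 vehicle mouse and gives no comparison of treatments.

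The promoters of the members that rose in both the combination and the high-dose zalfermin group and hold one of the motifs searched are shown first, because they carry letters that hepatocyte factors are known to bind. RefSeq (GRCm38.p6) lists 14 start sites for the 9 genes, and the 250 bases before each were searched on both strands for GTTAAT (HNF1), TGTTTAC and TGTTTGC (FOXA), TTGCNNAA (C/EBP), CAAAGTCC (HNF4) and ATCAAT (HNF6). Both Hnf4a windows lie on the plus strand, upstream at chr2:163506607-163506856 and downstream at chr2:163546905-163547154. Both Nr5a2 windows lie on the minus strand, at chr1:136960449-136960698 and chr1:136953631-136953880. Capitals mark the motif letters on either strand.
Hnf4a, upstream start: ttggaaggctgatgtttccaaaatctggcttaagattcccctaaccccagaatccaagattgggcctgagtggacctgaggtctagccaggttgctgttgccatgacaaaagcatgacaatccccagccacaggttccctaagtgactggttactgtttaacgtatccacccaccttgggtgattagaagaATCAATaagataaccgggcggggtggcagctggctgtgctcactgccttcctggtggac
Hnf4a, downstream start: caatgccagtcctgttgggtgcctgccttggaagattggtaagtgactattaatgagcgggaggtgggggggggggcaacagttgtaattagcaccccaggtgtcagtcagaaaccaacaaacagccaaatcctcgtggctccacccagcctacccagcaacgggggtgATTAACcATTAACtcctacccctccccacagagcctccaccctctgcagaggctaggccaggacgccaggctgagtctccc
Nr5a2, upstream start: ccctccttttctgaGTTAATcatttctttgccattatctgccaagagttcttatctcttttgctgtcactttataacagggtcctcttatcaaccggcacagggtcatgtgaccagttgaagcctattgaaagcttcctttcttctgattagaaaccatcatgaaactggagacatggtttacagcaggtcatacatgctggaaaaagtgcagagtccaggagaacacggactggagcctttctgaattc
Nr5a2, downstream start: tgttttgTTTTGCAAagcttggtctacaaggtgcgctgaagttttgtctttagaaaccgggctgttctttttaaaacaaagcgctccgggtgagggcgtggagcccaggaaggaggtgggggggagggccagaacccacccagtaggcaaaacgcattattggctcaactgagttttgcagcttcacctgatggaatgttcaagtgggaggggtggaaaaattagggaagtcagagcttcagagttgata

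The downstream Hnf4a window, at the start used in adult liver, held 2 copies of the HNF1 letters, both as their reverse complement, whose first bases lay at -81 and -74 from the start. The upstream Hnf4a window held the HNF6 letters at -59, the upstream Nr5a2 window the HNF1 letters at -236 and the downstream Nr5a2 window the C/EBP letters at -243. Among the other members, Foxa2 windows held the HNF1 and the HNF6 letters, Foxa1 held TGTTTAC, and Nr1i2 and Prox1 held TGTTTGC. The windows of Cebpa, Foxa3 and Nr1i3 held none of these letters. Of 32851 promoter windows of the same length in RefSeq, 6.43% held the HNF1 letters, 6.72% the HNF6, 9.56% the C/EBP, 3.17% and 4.30% the FOXA letters and 1.2% the HNF4 letters, which no member window held. A match is a description of letters only. The deposited counts are per gene and do not tell the start sites of a gene apart.

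Per kilobase of exon, on the scale of mean CPM per kilobase, Hnf4a (207) and Cebpa (204) had the highest levels of the 9 factors in chow-fed liver, followed by Foxa3 (41.2), Nr1i2 (28.6), Nr1i3 (25.9), Prox1 (17.9), Nr5a2 (14), Foxa2 (13.2) and Foxa1 (5.86). In DIO-MASH vehicle liver Cebpa (148) lay above Hnf4a (91.1), and Nr1i2 (26.3) above Prox1 (15.9) and Foxa3 (15.6). Exon lengths were those of GENCODE vM21 on GRCm38 and ran from 2037 bases in Foxa3 to 8390 bases in Prox1. Of the exon bases of Nr1i3, 3304 of 4414 are shared with Tomm40l on the opposite strand, so the level of Nr1i3 per kilobase depends on how the authors counted such reads.

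The first comparison asked how the diet model differed from healthy liver. Of the 9 factors, 6 were higher in chow-fed than in DIO-MASH vehicle mice and 0 were lower, where 26.5% of all tested genes were higher. Hnf4a, Foxa3 and Nr1i3 differed by over 2-fold, Foxa1, Cebpa and Nr5a2 by 1.38- to 1.46-fold, and Foxa2, Nr1i2 and Prox1 did not pass the test. The median log2 fold change of the members was 0.51, beside -0.0072 over all genes tested. Calls here are edgeR quasi-likelihood tests on all 56 mice with an adjusted p under 0.05. With library totals in place of TMM, which moved the median of all genes in this comparison to -0.465, only Hnf4a, Foxa3 and Nr1i3 were still called higher and Nr1i2 was called lower at -0.34 (adjusted p = 0.0197), a split of 3 to 1 in place of 6 to 0.

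**Figure D1:**
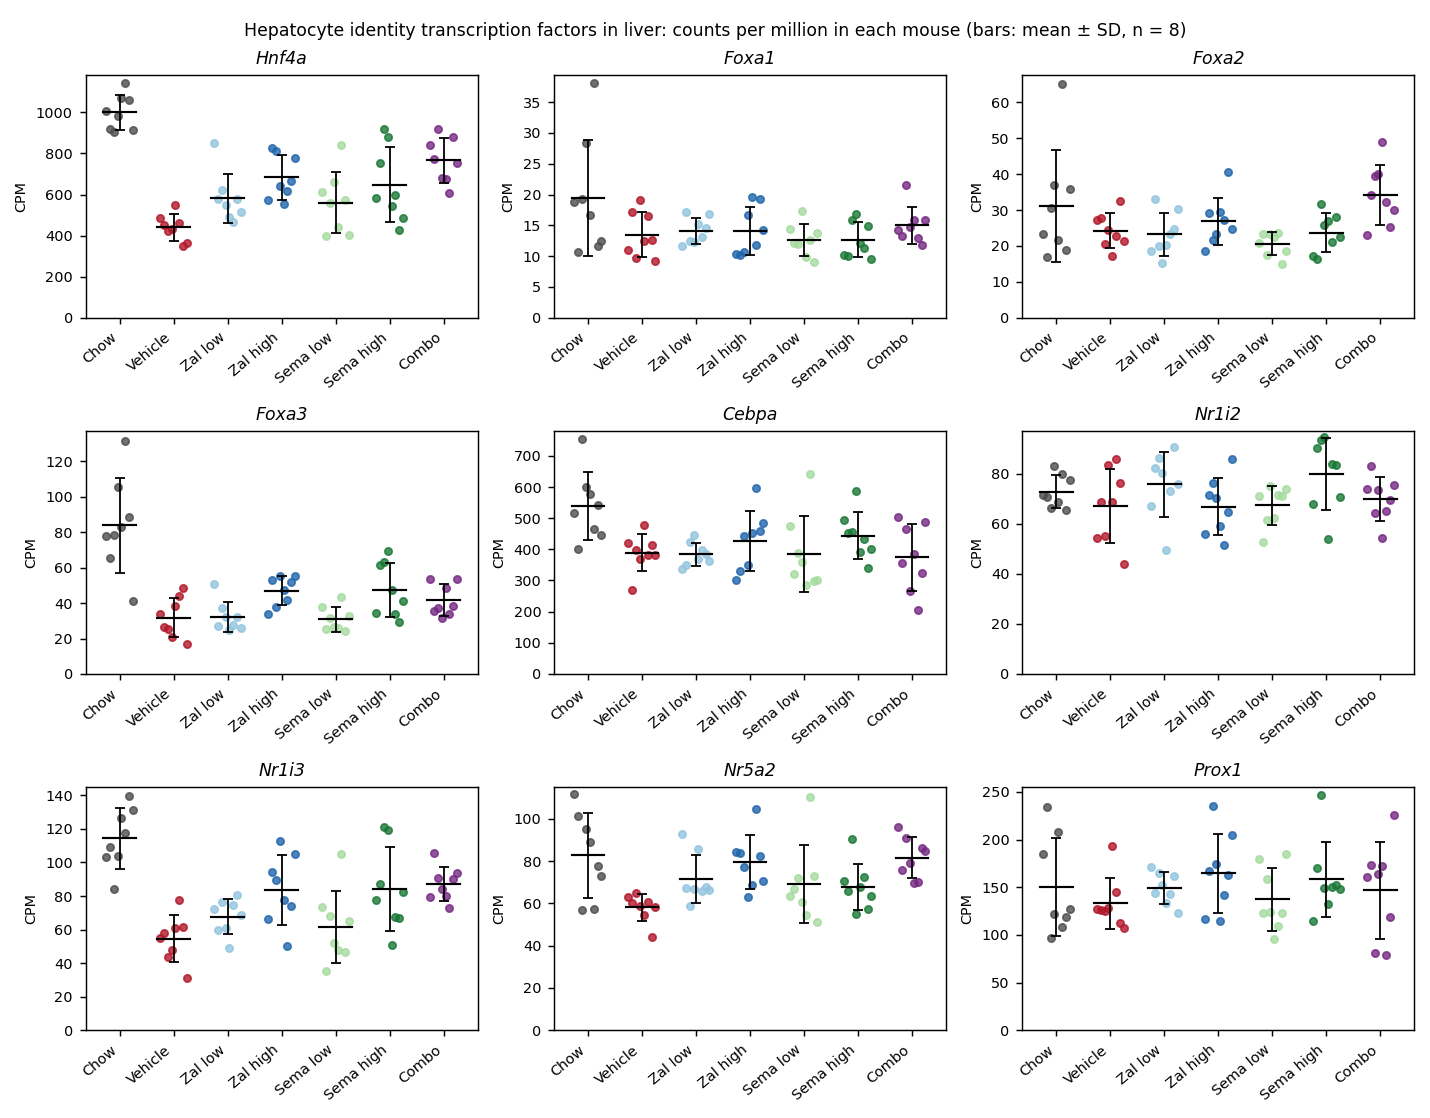
CPM of each factor in each of the 56 mice, by group (y axis: CPM from 0; points: mice; bars: mean ± SD, n = 8). Hnf4a lay between 907 and 1144 CPM in chow-fed mice, above the 349 to 547 CPM of DIO-MASH vehicle, with the combination at 606 to 921, whereas Nr1i2 and Prox1 overlapped across all groups.

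The second comparison asked which treatments moved these factors in AMLN-fed mice. The combination raised 3 of 9 factors (Hnf4a, Nr1i3 and Nr5a2), where 10% of all tested genes rose. High-dose zalfermin raised 4 (the same 3 and Foxa3), where 8.54% of genes rose, and high-dose semaglutide raised 2 (Hnf4a and Nr1i3), where 1.43% of genes rose. None of the 9 fell in any of these 3 comparisons. With 13 runs of label numbers as a replicate block, described at the end, high-dose semaglutide called 0 factors. Low-dose zalfermin called 0 factors, where 0.468% of genes were called in either direction, with 2 factors at an unadjusted p under 0.05. DESeq2 called 1 factor there (Hnf4a), and 211 of 14105 genes. Low-dose semaglutide called 0 factors with edgeR, where 0% of genes were called, with 1 factor at an unadjusted p under 0.05. DESeq2 called 0 factors there, and 32 of 14105 genes. The median log2 fold change of the 9 factors was 0.38 for the combination, 0.31 and 0.16 for high- and low-dose zalfermin, and 0.25 and 0.0077 for high- and low-dose semaglutide, beside -0.026, -0.023, -0.019, -0.0093 and -0.0031 over all genes. With library totals in place of TMM, which moved the median of all genes to -0.247, -0.211 and -0.134 in the combination and the high doses of zalfermin and semaglutide, only Hnf4a and Nr1i3 rose in the combination and with zalfermin, and only Hnf4a with semaglutide. All 6 comparisons share the DIO-MASH vehicle mice.

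**Figure D2:**
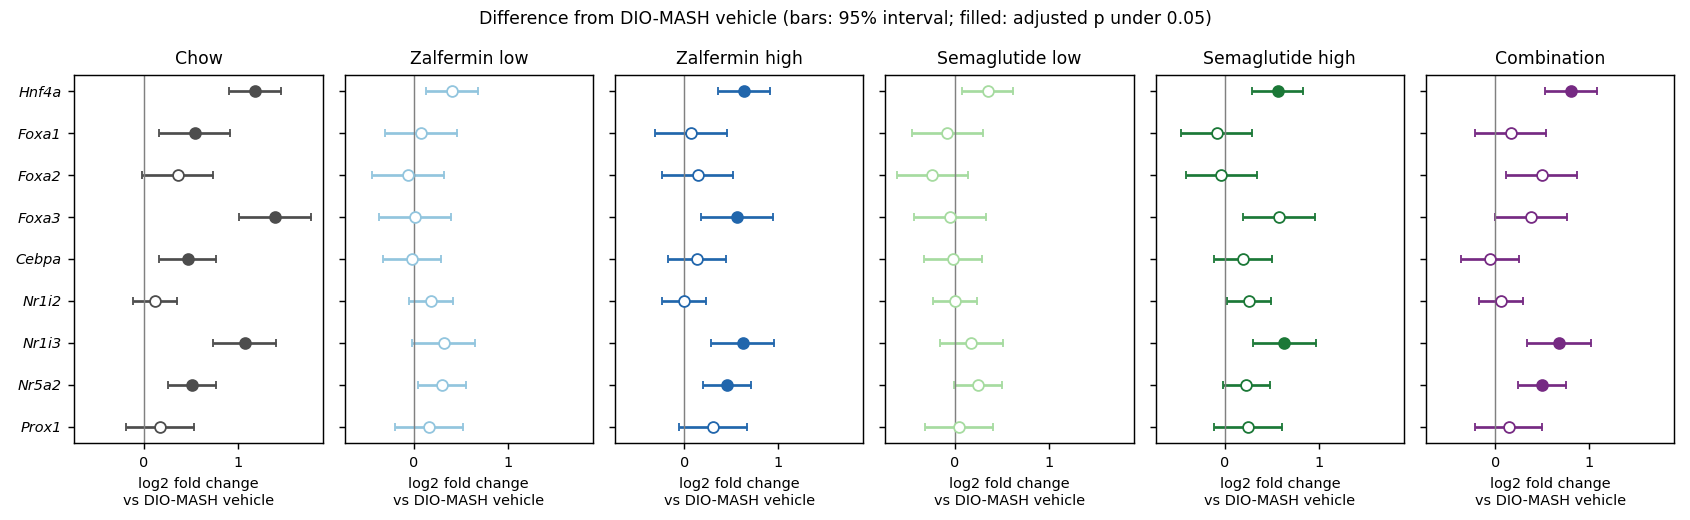
Log2 fold change of each factor against DIO-MASH vehicle (x axis) with its 95% interval (bars), for chow and each treatment, with filled points for an adjusted p under 0.05. Hnf4a was filled for chow (1.19), the combination (0.80) and the high doses of zalfermin (0.64) and semaglutide (0.56), and open for both low doses.

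Hnf4a encodes HNF4α, the orphan nuclear receptor that drives apolipoproteins, coagulation factors and bile acid transport in hepatocytes. Its gene lies at chr2:163506808-163572910 on GRCm38. Its level was 907, 995 and 1144 CPM (lowest, median and highest mouse) in chow-fed mice. In DIO-MASH vehicle mice it was 349, 442 and 547 CPM. These groups did not overlap, with a log2 fold change of 1.19 ± 0.14 (SE, n = 8 mice per group, adjusted p = 3.91e-10 by edgeR). Combination mice had 606, 763 and 921 CPM, all above the highest vehicle mouse, with a log2 fold change of 0.80 ± 0.14 (edgeR adjusted p = 1.87e-05). High-dose zalfermin mice had 554, 653 and 826 CPM, also without overlap with vehicle, with a log2 fold change of 0.64 ± 0.14 (edgeR adjusted p = 0.000559). High-dose semaglutide mice had 428, 590 and 918 CPM and overlapped with vehicle, with a log2 fold change of 0.56 ± 0.14 (edgeR adjusted p = 0.0184). The last call was lost without high-dose semaglutide mouse 2, 3 or 4, each left out in turn, with an adjusted p of up to 0.0808. At the low doses Hnf4a had 464, 563 and 851 CPM with zalfermin and 397, 566 and 843 CPM with semaglutide. Both ranges reached from within the vehicle range to well above it, and neither difference passed the test with edgeR (log2 fold change 0.40, adjusted p = 0.181, and 0.35, adjusted p = 0.435). Without low-dose semaglutide mouse 6, which had the 843 CPM, the second value was 0.24. In number series A, B and C, taken alone, the mean log2 CPM of chow-fed mice exceeded that of vehicle mice by 1.04, 0.96 and 1.40. The mean of combination mice exceeded that of vehicle mice by 0.77, 0.46 and 1.02. For the high doses the difference was 0.64, 0.38 and 0.84 with zalfermin, and 0.72, 0.30 and 0.18 with semaglutide. For every factor, these series held 2, 1 and 3 chow-fed mice and 2, 3 and 2 vehicle mice. The combination and high-dose semaglutide each had 4, 2 and 2 mice there, and high-dose zalfermin 3, 3 and 2. The chow value of series B thus rests on 1 chow-fed mouse.

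Nr1i3 encodes CAR, the constitutive androstane receptor, which switches on drug-metabolizing enzymes of the Cyp2b and Cyp2c families. It lies at chr1:171213970-171220701. Chow-fed mice had 84.1, 113 and 140 CPM (lowest, median and highest). Vehicle mice had 30.9, 56.3 and 77.8 CPM. No chow-fed mouse overlapped with a vehicle mouse, and the log2 fold change was 1.07 ± 0.17 (SE, n = 8, edgeR adjusted p = 5.09e-07). Nr1i3 rose with the combination (72.8, 87.4 and 105 CPM, log2 fold change 0.68, edgeR adjusted p = 0.00273). It rose with high-dose zalfermin (50.2, 83.5 and 113 CPM, log2 fold change 0.62, edgeR adjusted p = 0.0067). It also rose with high-dose semaglutide (50.5, 80.0 and 121 CPM, log2 fold change 0.63, edgeR adjusted p = 0.0293). The combination overlapped with vehicle only at the upper end of the vehicle range, and the lowest mice of both high-dose groups lay below the vehicle median. The high-dose semaglutide call was lost, with an adjusted p of up to 0.122, without vehicle mouse 3, 4 or 8 or without high-dose semaglutide mouse 2, 3 or 4, each left out in turn, and its difference in series A, B and C was 0.82, 0.22 and 0.11 log2 CPM. In the combination these were 0.67, 0.60 and 0.41. At the low doses, the log2 fold changes were 0.32 for zalfermin and 0.18 for semaglutide, neither past the test, and the second was 0.027 without mouse 6. Tomm40l, which encodes a protein of the mitochondrial outer membrane and shares exons with Nr1i3 on the opposite strand, moved the other way, with log2 fold changes of -0.52 in chow, -0.45 in the combination and -0.29 in high-dose zalfermin (edgeR adjusted p = 3.47e-05, 0.00102 and 0.0432). Whether reads were shared between them was not tested.

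Nr1i2 encodes PXR, the pregnane X receptor, the other xenobiotic sensor of the liver and a close relative of CAR. It lies at chr16:38248323-38294824 and was called in 0 of the 16 comparisons by edgeR, with an unadjusted p under 0.05 in 2, and in 0 by DESeq2. Its level was 65.4, 71.1 and 83.2 CPM in chow-fed mice and 43.9, 68.9 and 86.2 CPM in vehicle mice, so the chow range lay inside the vehicle range. Group means ran from 66.9 CPM in high-dose zalfermin to 79.9 CPM in high-dose semaglutide. The interval of its log2 fold change for chow against vehicle was -0.11 to 0.35, and for the combination -0.17 to 0.29.

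The 3 FOXA factors did not share 1 pattern. Foxa3 (chr7:19013284-19023538), the FOXA factor with the highest level in adult liver here, was 41.2, 80.8 and 132 CPM in chow-fed mice. In vehicle mice it was 17.02, 30.2 and 48.8 CPM. Only chow mouse 8, at 41.2 CPM, lay within the vehicle range, and the log2 fold change was 1.40 ± 0.19 (SE, n = 8, edgeR adjusted p = 2.91e-08), or 1.5 without that mouse. Foxa3 rose with high-dose zalfermin (34.1, 49.6 and 55.5 CPM, log2 fold change 0.56, edgeR adjusted p = 0.0347). That call was lost, with an adjusted p of up to 0.0934, when vehicle mouse 2, 3, 4 or 8 or high-dose zalfermin mouse 2, 4, 7 or 8 was left out. High-dose semaglutide gave a log2 fold change of similar size, 0.57, that did not pass the test (29.5, 44.3 and 69.3 CPM, edgeR adjusted p = 0.0927), though it did without vehicle mouse 7 or high-dose semaglutide mouse 7 (lowest adjusted p = 0.0355). In series A, B and C its difference was 0.87, 0.54 and -0.40 log2 CPM, beside 0.44, 0.80 and 0.21 with high-dose zalfermin. The combination gave 0.38 (adjusted p = 0.152).

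Foxa2 (chr2:148042877-148046969), a pioneer factor that also regulates bile acid and fasting genes, was 17.01, 26.97 and 65.2 CPM in chow-fed and 17.3, 23.7 and 32.6 CPM in vehicle mice. The groups overlapped almost fully, and the log2 fold change of 0.36 did not pass the test (edgeR adjusted p = 0.101), though it did without chow mouse 2 or 7 or vehicle mouse 7 (lowest adjusted p = 0.0363). Without chow mouse 6, the mouse with 65.2 CPM, it was 0.11 (adjusted p = 0.621). Its highest group mean was that of the combination, at 23.1, 33.3 and 48.8 CPM, where the difference from vehicle was 0.49 ± 0.19 (SE, n = 8, edgeR adjusted p = 0.0543). The combination passed against vehicle with DESeq2 (adjusted p = 0.0466), with only both groups fitted (adjusted p = 0.0186), and in 4 of the 18 fits that left out 1 mouse (vehicle mouse 1 or 7, combination mouse 1 or 7, lowest adjusted p = 0.0302). Foxa1 (chr12:57540628-57546916) had the lowest level of the 9, at 10.6, 17.7 and 38.04 CPM in chow-fed and 9.16, 12.6 and 19.1 CPM in vehicle mice. Its log2 fold change of 0.54 (edgeR adjusted p = 0.0127) was 0.32 (adjusted p = 0.115) without chow mouse 6, the mouse with 38.04 CPM, and its adjusted p was 0.0903 when only both groups were fitted. No treatment gave a call for Foxa1 or Foxa2 against vehicle.

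Cebpa encodes C/EBPα, a leucine zipper factor that restrains hepatocyte division and drives urea cycle and gluconeogenic genes. It lies at chr7:35119293-35121928. It was 402, 530 and 753 CPM in chow-fed and 269, 390 and 479 CPM in vehicle mice, with overlap, and a log2 fold change of 0.47 ± 0.15 (SE, n = 8, edgeR adjusted p = 0.00833). No treated group passed the test against vehicle, with log2 fold changes from -0.057 (combination, interval -0.36 to 0.25) to 0.19 (high-dose semaglutide, interval -0.12 to 0.50). Mice of a group spread unequally, with 384 ± 122 CPM in low-dose semaglutide and 374 ± 108 CPM in the combination (mean ± SD, n = 8), beside 384 ± 37.2 CPM with low-dose zalfermin. In low-dose semaglutide its highest mouse was mouse 6, at 642 CPM.

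Nr5a2 encodes LRH-1, a nuclear receptor for phospholipids that supports bile acid synthesis and reverse cholesterol transport. It lies at chr1:136842571-136960448. It was 56.96, 83.3 and 112 CPM in chow-fed and 44.1, 59.5 and 64.9 CPM in vehicle mice. Chow mice 3 and 6 lay within the vehicle range, and the log2 fold change was 0.51 ± 0.13 (SE, n = 8, edgeR adjusted p = 0.000533). In number series B, with 1 chow-fed and 3 vehicle mice, the difference was -0.058 log2 CPM, against 0.79 in series A and 0.60 in series C. All 8 combination mice (69.9, 82.1 and 96.2 CPM) lay above all 8 vehicle mice, with a log2 fold change of 0.49 ± 0.13 (edgeR adjusted p = 0.00352). High-dose zalfermin mice had 63.2, 80.0 and 105 CPM, with only mouse 4 inside the vehicle range, and a log2 fold change of 0.45 ± 0.13 (edgeR adjusted p = 0.00843). With library totals, Nr5a2 was called in none of these comparisons, at 0.049 in chow (adjusted p = 0.714), 0.28 in the combination (0.0502) and 0.26 with high-dose zalfermin (0.0781). In the TMM fit, high-dose semaglutide gave 0.23 (adjusted p = 0.352), low-dose zalfermin 0.30 and low-dose semaglutide 0.25, or 0.12 without mouse 6, which had 110 CPM.

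Prox1, a homeobox factor of hepatocytes and lymphatic endothelium that restrains lipid genes with its partners, lies at chr1:190118035-190170714 and was called in 0 of the 16 comparisons by edgeR, with an unadjusted p under 0.05 in 0, and in 0 by DESeq2. It was 96.3, 124 and 234 CPM in chow-fed and 107, 127 and 193 CPM in vehicle mice. Group means ran from 133 CPM in vehicle to 165 CPM in high-dose zalfermin, and the interval for chow against vehicle was -0.19 to 0.53 on the log2 scale. The summed level of the 4 lymphatic endothelial markers tested was 50.8, 78.7 and 119 CPM in chow-fed and 156, 196 and 254 CPM in vehicle mice. Of these markers, 3 were called lower and 1 higher in chow, and Reln also stands among the stellate cell markers. The part of lymphatic endothelial cells in the level of Prox1 was not tested.

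Against chow, the treated groups showed which factors stayed below the healthy level. Zalfermin at the low dose left 5 factors lower (where 22.5% of all genes were lower), low-dose semaglutide 6 (21.3%), the combination 3 (15.0%), zalfermin at the high dose 4 (17.6%) and semaglutide at the high dose 4 (18.6%). In the main fit, Hnf4a and Foxa3 were below chow in all 5 treated groups, and Nr1i2, Nr5a2 and Prox1 were below chow in none. Nr1i2 and Prox1 were not called between chow and vehicle either, so for them this does not tell of a recovery. For Hnf4a, the log2 difference from chow was -0.38 in the combination (edgeR adjusted p = 0.0248), -0.55 and -0.78 with high- and low-dose zalfermin, and -0.63 and -0.83 with high- and low-dose semaglutide. The combination value missed the threshold without combination mouse 6 (adjusted p = 0.0551). For Foxa3 it was -1.02 in the combination, -0.84 with zalfermin and -0.82 with semaglutide at the high doses. Cebpa was lower in the combination (-0.52, edgeR adjusted p = 0.00658) and at both low doses, and did not pass at either high dose (-0.33 and -0.28). Nr1i3 was lower than in chow in every group other than the combination, where the difference was -0.39 (adjusted p = 0.0631, and 0.0406 at the lowest, without chow mouse 3 or low-dose semaglutide mouse 6). At the high doses the Nr1i3 calls were lost without chow mouse 7 or 8, high-dose zalfermin mouse 1, 6 or 7, or high-dose semaglutide mouse 5, 6 or 7 (adjusted p up to 0.0711 and 0.08). The calls of Foxa1 in 4 groups and of Foxa2 in low-dose semaglutide were lost without chow mouse 6, with adjusted p of up to 0.265 and 0.0978. Foxa1 also lost its call without chow mouse 4 or low-dose zalfermin mouse 1, 3 or 4 in that group, and without chow mouse 1, 3 or 4 or high-dose zalfermin mouse 1, 2, 3, 6 or 8 in that one. Leaving out 1 mouse also gained calls below chow. These were Foxa2 for low-dose zalfermin (chow mouse 1, 2, 5 or 7, low-dose zalfermin mouse 2 or 8, adjusted p down to 0.0201) and high-dose semaglutide (chow mouse 2 or 7, high-dose semaglutide mouse 3, down to 0.0316). They were Nr5a2 for low-dose semaglutide (chow mouse 3 or 6, low-dose semaglutide mouse 6, down to 0.00487) and high-dose semaglutide (chow mouse 3, 6 or 8, high-dose semaglutide mouse 3, low-dose semaglutide mouse 6, down to 0.0203). They were also Foxa1 for the combination (chow mouse 2, combination mouse 3, down to 0.0444) and Cebpa for high-dose zalfermin (chow mouse 2, high-dose zalfermin mouse 6, down to 0.0277). With library totals, 3 factors were lower than in chow at each low dose, 1 in the combination and 2 at each high dose, and Nr1i2 was higher with low-dose zalfermin (0.40) and high-dose semaglutide (0.45). With the number series as a covariate, Nr5a2 was added at both semaglutide doses and Foxa1 in the combination. Nr1i3 was lost there with high-dose zalfermin. A filter of 10 reads in 8 mice added Nr1i3 in the combination, Foxa2 with low-dose zalfermin and Nr5a2 with high-dose semaglutide. With only the groups compared, Nr1i3 was added in the combination. That fit lost Foxa1 at both zalfermin doses, and Foxa1 and Foxa2 with low-dose semaglutide. All 5 comparisons share the chow-fed mice.

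In the order of the group means of each factor, 2 of the 54 steps between neighboring groups passed the test. These were chow above the combination for Hnf4a (0.38, edgeR adjusted p = 0.0248) and chow above high-dose semaglutide for Foxa3 (0.82, adjusted p = 0.000488). The order was taken from the same means, so neighbors are the groups that differ least. A step that did not pass therefore does not tell whether the treatments differ. The means of Hnf4a followed the order chow (1000 CPM), combination (766), high-dose zalfermin (683), high-dose semaglutide (648), low-dose zalfermin (581), low-dose semaglutide (561) and vehicle (440). Below the combination no step of that order passed the test, and the last one, low-dose semaglutide over vehicle, was 0.35 with an interval of 0.079 to 0.62 (edgeR adjusted p = 0.435).

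The combination was also set against each of its parts. Against low-dose semaglutide, 2 factors were higher, where 1.93% of genes were, namely Foxa2 (log2 fold change 0.73 ± 0.19, SE, n = 8, edgeR adjusted p = 0.0158) and Hnf4a (0.45 ± 0.14, adjusted p = 0.0439). Foxa2 was 15.0, 21.6 and 23.6 CPM with low-dose semaglutide and 23.1, 33.3 and 48.8 CPM in the combination, so that only combination mouse 1 lay below the highest low-dose semaglutide mice. Without low-dose semaglutide mouse 6, 4 factors were higher, with Nr1i3 (0.65, adjusted p = 0.00705) and Nr5a2 (0.37, adjusted p = 0.0365) added. Leaving out this mouse also took the genes called in either direction from 594 to 1178 of 14105. The Hnf4a call was lost in 11 of the 17 fits without 1 mouse (without low-dose semaglutide mouse 1, 2, 3, 5, 7 or 8 or combination mouse 1, 2, 3, 7 or 8, adjusted p up to 0.116) and the Foxa2 call without combination mouse 5 (adjusted p = 0.0518). Against low-dose zalfermin, edgeR called 0 factors, where 6.62% of genes were called in either direction, with 3 at an unadjusted p under 0.05. DESeq2 called 2 factors, where it called 1169 of 14105 genes, namely Foxa2 (edgeR 0.56, adjusted p = 0.0624) and Hnf4a (edgeR 0.40, adjusted p = 0.0629). In edgeR Foxa2 passed without low-dose zalfermin mouse 2 or 8 or combination mouse 1 or 7, and Hnf4a without low-dose zalfermin mouse 1, low-dose semaglutide mouse 6 or combination mouse 6 (adjusted p down to 0.0354 and 0.0133). The test of the low-dose interaction, which asks whether the combination differs from the sum of both low doses on the log2 scale, called 0 factors with edgeR and 0 with DESeq2, where 0.0142% of genes were called, and 1 factor had an unadjusted p under 0.05. Its largest value among the 9 was that of Foxa2, 0.79 with an interval of 0.26 to 1.33 (edgeR adjusted p = 0.468), and that of Hnf4a was 0.047 with an interval of -0.34 to 0.43.

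Neither drug showed a dose difference for these factors that passed the test. High-dose against low-dose zalfermin called 0 of 9, where 1.84% of genes were called, with 1 factor at an unadjusted p under 0.05 (Foxa3, 0.55, edgeR adjusted p = 0.144, and 0.0374 without low-dose zalfermin mouse 1). High-dose against low-dose semaglutide called 0 of 9, where 0% of genes were called, with 3 factors at an unadjusted p under 0.05 (Foxa3 at 0.62, Nr1i3 at 0.45 and Nr1i2 at 0.24). DESeq2 called 0 factors in both. The intervals of Hnf4a were -0.039 to 0.51 for zalfermin and -0.063 to 0.48 for semaglutide.

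The known targets of these factors were described from lists written from general knowledge, with Alb, Cps1 and other genes standing in more than 1 list. The lists were chosen with earlier results of these data known, so their counts are descriptions and not an independent test. Over all tested genes, 26.5% were higher and 28.9% lower in chow than in vehicle, 10% and 10.9% in the combination, 8.54% and 8.68% with high-dose zalfermin, and 1.43% and 1% with high-dose semaglutide, and the counts of all lists are to be read against these shares. Of 17 HNF4A target genes, 14 were higher and 1 lower in chow than in vehicle (median log2 fold change 0.70), 10 rose and 1 fell in the combination (0.33), 9 rose and 1 fell with high-dose zalfermin (0.45), and 4 rose with high-dose semaglutide (0.29). The largest rises in the combination were those of the coagulation factor F7 (1.32, edgeR adjusted p = 1.66e-09), the bile acid importer Slc10a1 (1.15) and Apom (1.04), a lipoprotein that carries sphingosine 1-phosphate. The 1 gene that fell was Apoa4, an apolipoprotein that fat loading of the liver induces, at -1.27 in the combination, -1.76 with high-dose zalfermin and -3.37 in chow (edgeR adjusted p = 0.000314, 2.20e-06 and 5.98e-14).

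**Figure D3:**
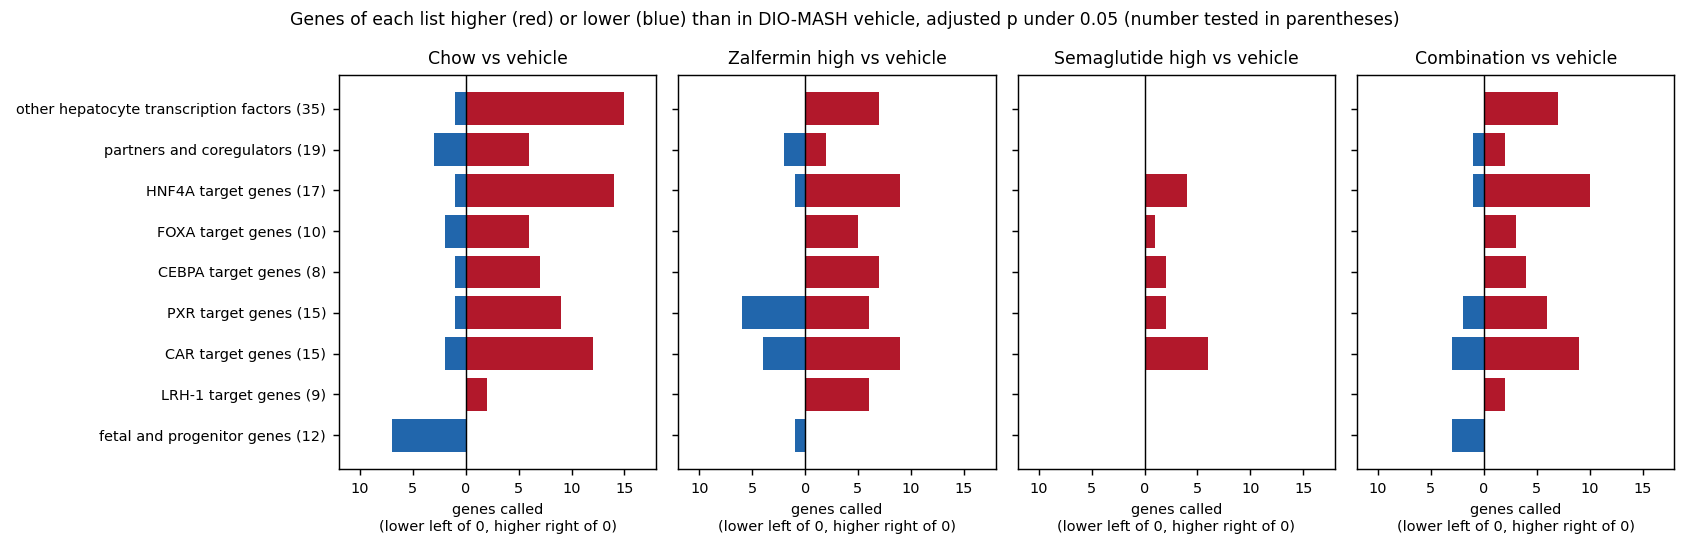
Number of genes of each list that were higher (red, right of 0) or lower (blue, left of 0) than in DIO-MASH vehicle with an adjusted p under 0.05, for chow, both high doses and the combination. HNF4A target genes called higher numbered 14, 9, 4 and 10 of 17, PXR target genes with high-dose zalfermin split 6 to 6, and fetal and progenitor genes were only lower or not called.

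CAR target genes moved in both directions. Of 15, 12 rose and 2 fell in chow (median 1.80), 9 rose and 3 fell in the combination (0.61), 9 rose and 4 fell with high-dose zalfermin (0.35), and 6 rose with high-dose semaglutide (0.31). Cyp2b10, the classical CAR target, rose by 5.30 on the log2 scale in chow (edgeR adjusted p = 2.09e-08). In the combination the largest rises were Cyp2c37 (2.58), Cyp2c29 (1.86) and Cyp2c54 (1.78), all drug-metabolizing cytochromes, and the falls were Gstm3 (-1.42), a glutathione transferase, Aldh1a7 (-0.73) and the exporter Abcc3 (-0.50). PXR target genes, whose factor was not called, had 9 rises and 1 fall among 15 in chow (median 0.74), 6 and 2 in the combination (-0.061), and at the high doses 6 and 6 with zalfermin (-0.20) and 2 and 0 with semaglutide (0.030). With high-dose zalfermin these included rises of the transporter Slco1a4 (1.2) and of Papss2 (1.12), which makes the sulfate donor, and falls of Gsta1 (-2.92) and Cyp2c55 (-1.17). The median and the counts differ in sign for the combination.

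Of 10 FOXA target genes, 6 rose and 2 fell in chow (median 0.84), 3 rose in the combination (0.42), and the high doses raised 5 with zalfermin (0.43) and 1 with semaglutide (0.23). Of 8 CEBPA target genes, 7 rose and 1 fell in chow (1.29), 4 rose in the combination (0.69), and the high doses raised 7 with zalfermin (1.09) and 2 with semaglutide (0.46), although Cebpa itself was called in none of these treatments. Cps1, the first enzyme of the urea cycle and a member of both lists, rose by 1.56 with high-dose zalfermin (edgeR adjusted p = 1.01e-07) and by 1.33 in the combination. In chow the fall in both lists was that of G6pc (-0.998), the last enzyme of gluconeogenesis. Of 9 LRH-1 target genes, 2 were higher in chow (median 0.24), a share near that of all genes, and there rose 2 in the combination (0.38) and 6 with high-dose zalfermin (0.65), among them Gls2 (1.43), a liver glutaminase, Cyp7a1 (1.13), the rate-limiting enzyme of bile acid synthesis, and the sterol exporter subunit Abcg8 (0.89), and 0 with high-dose semaglutide (0.33). At low doses, calls were rare. Low-dose zalfermin raised 3 HNF4A, 1 FOXA, 2 CEBPA, 0 PXR, 1 CAR and 1 LRH-1 target genes, and low-dose semaglutide called 0 genes of any list.

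Of 35 other transcription factors of the hepatocyte, 15 were higher and 1 lower in chow (median 0.28), 7 rose in the combination (0.21), and at the high doses 7 rose with zalfermin (0.22) and 0 with semaglutide (0.16). In chow the largest rises were Onecut1 (1.42), which encodes HNF6, Hhex (0.95) and Klf15 (0.76). In the combination they were Mlxipl (0.69), which encodes the glucose sensor ChREBP, Stat3 (0.43) and Thrb (0.42), the thyroid hormone receptor. Of 12 fetal and progenitor genes tested, 7 were lower in chow (median -1.26), 3 fell in the combination (-0.44), and at the high doses 1 fell with zalfermin (-0.46) and 0 with semaglutide (-0.58). In the combination these were Afp (-1.63), the fetal albumin relative, Spp1 (-1.37) and Krt23 (-0.85). Spp1 also stands among the cholangiocyte markers, so these 2 lists are not separate. Their median log2 fold change with high-dose zalfermin was the same (-0.46). The fetal and progenitor genes summed to 39.3, 61.5 and 335 CPM (lowest, median and highest mouse) in chow-fed mice. Their calls were not repeated without chow mouse 8.

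Markers of several cell types also differed between the groups, not all in the direction of the members. The labelled tissue matched its defining markers, with summed hepatocyte markers of 77110 CPM or more in every vehicle mouse. The 9 hepatocyte markers tested summed to 162537 to 264818 CPM in chow-fed, 77110 to 97274 in vehicle, 105164 to 157896 in combination, 92357 to 151665 in high-dose zalfermin and 79042 to 133861 CPM in high-dose semaglutide mice, and 8, 7, 7 and 2 of the 9 were called higher than vehicle in chow, the combination and the high doses of zalfermin and semaglutide, in that order. Stellate cell markers went the other way, with 8 genes summing to 150 to 279 CPM in chow-fed, 956 to 1592 in vehicle, 384 to 761.8 in combination, 316 to 736 in high-dose zalfermin and 425 to 1655 CPM in high-dose semaglutide mice, and 7, 6, 2 and 2 of 8 called lower. Summed over 11 macrophage markers, chow-fed mice had 98.5 to 435, vehicle 400 to 607 and combination 272 to 763 CPM, and 6 cholangiocyte markers summed to 32.2 to 292, 192 to 590 and 55.7 to 241 CPM. Chow mouse 8 alone had the 292 CPM, and the highest of the other chow-fed mice was mouse 2 at 60.1 CPM. The calls of marker genes were not repeated without chow mouse 8. Endothelial markers (6 genes) overlapped between all groups, at 159 to 231 CPM in chow-fed and 174 to 241 in vehicle mice, although 4 of the 6 were called lower and 1 higher in chow, and 1 lower in the combination. Of the lymphatic endothelial markers 3 were called lower and 1 higher in chow. Of the macrophage markers 9 were called lower in chow, and 2 lower and 1 higher in the combination, and of the cholangiocyte markers 3 and 1 were called lower in these comparisons. T cell and B cell markers (4 each) summed to at most 16.3 and 44.9 CPM in any mouse. Called lower were 4 of 4 for both in chow, 1 of the B cell markers in the combination and 4 in high-dose semaglutide. The 44.9 CPM was that of a vehicle mouse. The median B cell sum was only 4.99 CPM in vehicle and 2.91 CPM in high-dose semaglutide mice. Whether the B cell calls hold without that vehicle mouse was not tested. The part of these markers in the members' differences was not tested, and in whole liver fewer hepatocytes and less RNA per hepatocyte cannot be told apart.

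**Figure D4:**
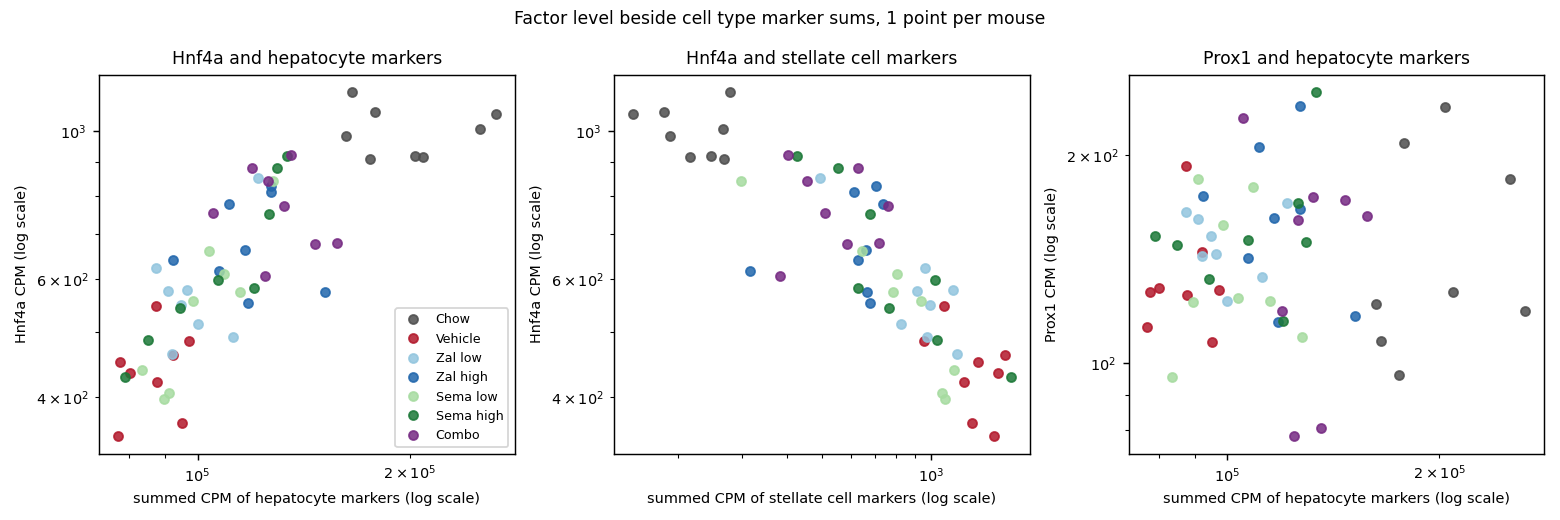
Level of Hnf4a beside the summed hepatocyte markers (left) and stellate cell markers (middle), and of Prox1 beside the hepatocyte markers (right), in CPM on log axes, 1 point per mouse, colored by group. Chow-fed mice had higher hepatocyte marker sums (162537 CPM or more) and lower stellate sums (279 CPM or less) than all other mice, their Hnf4a (907 CPM or more) met the highest treated mice (up to 921 CPM), and Prox1 ranges overlapped between all groups.

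Within groups, the factors did not vary as 1 unit. After subtracting group means, Pearson correlations of log2 CPM over the 48 AMLN-fed mice ran from -0.23 to 0.70 over the 36 pairs of factors, with a median of 0.26 and 7 pairs below 0. They are descriptions, and the libraries of the mice differed in depth. The highest were those of Nr1i2 with Nr1i3 (r = 0.70, Spearman rho 0.63, and r = 0.64 without the 2 mice farthest from the median of Nr1i2), of Foxa3 with Nr1i3 (0.66, rho 0.68 and 0.62), of Hnf4a with Nr1i3 (0.59, rho 0.53 and 0.55) and of Foxa1 with Foxa2 (0.55, rho 0.57 and 0.56). Without low-dose semaglutide mouse 6 these r were 0.73, 0.64, 0.54 and 0.55, in that order. Leaving out this mouse moved Nr1i3 with Nr5a2 from 0.0063 to -0.20. Nr1i2 thus varied with Nr1i3 between mice of a group, although the group means of Nr1i3 differed and those of Nr1i2 were not called. Correlations of the factors with log2 total reads, computed the same way, ran from -0.13 (Nr5a2) to 0.28 (Nr1i2).

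**Figure D5:**
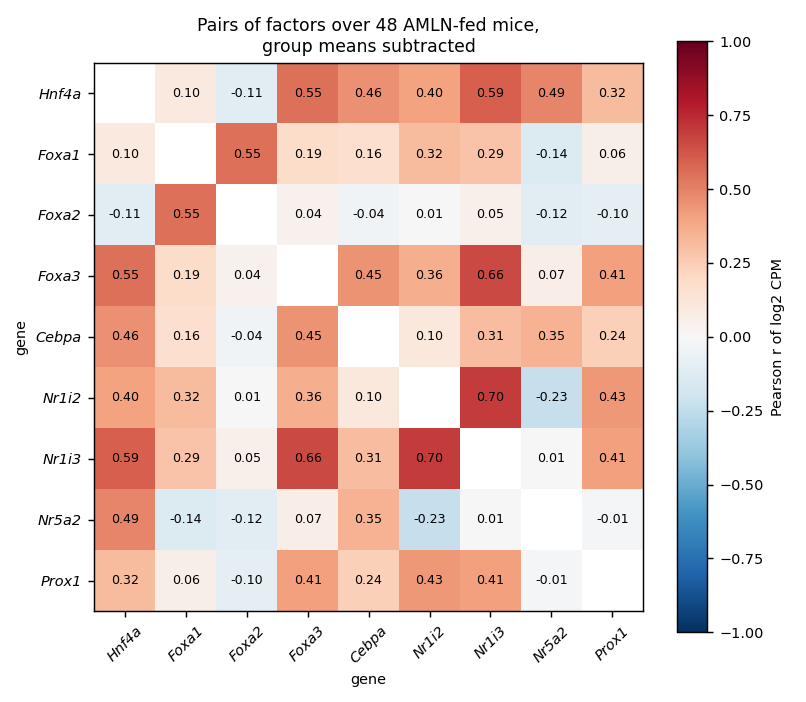
Pearson correlation of log2 CPM between each pair of factors over 48 AMLN-fed mice after subtraction of group means (color scale: -1 to 1, values printed). Nr1i2 and Nr1i3 had the highest value (0.70), and 7 of 36 pairs lay below 0.

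Among the 11866 other genes with a mean of 1 CPM or more, those most like each factor over the same 48 mice were found in the same way. This search was not repeated without low-dose semaglutide mouse 6. For Hnf4a they were Mia3 (r = 0.87), a gene of the secretory pathway, Rxra (0.83), the partner of many nuclear receptors, and Eif4ebp2 (0.82). For Nr1i3 they were Cyp2e1 (0.79), Eci2 (0.77), an enzyme of fatty acid oxidation, and Hlf (0.77), and for Nr1i2 Fkbp5 (0.81), a glucocorticoid-responsive gene, Por (0.78), the electron donor of cytochromes P450, and Ivns1abp (0.78). For Foxa1 they were the hepatocyte factors Onecut1 (0.68) and Hhex (0.67) and Zfp691 (0.66), and for Foxa2 Cish (0.70), Phlda1 (0.66) and Bicdl1 (0.61). For Foxa3 they were the metal transporter Slc39a14 (0.81), Tedc2 (0.78) and Gfra1 (0.76), and for Cebpa 2810459M11Rik (0.78), Ciao1 (0.78) and Gch1 (0.77). For Nr5a2 they were the transporters Slc19a2 (0.81) and Slc7a2 (0.77) and Zfp385b (0.78), and for Prox1 Prickle1 (0.73), D16Ertd472e (0.67) and Sbk1 (0.67).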

How the data were processed

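Liver RNA of 56 mice, 8 in each of 7 groups taken from the sample labels, was analysed. The authors deposited raw counts of reads per gene without normalization, from a stranded mRNA kit. Their methods name STAR and the GRCm38 genome, and the submitters' processing notes name Trim Galore 0.6.4 and Salmon 1.9.0. The counting program and its use of strand are not given in the sources used here, which bears on overlapping genes. The 14105 genes reaching 5 reads in at least 3 mice were tested in R 4.3.3 with edgeR 4.0.16 (TMM, 1 quasi-likelihood fit of all groups, two-sided tests, Benjamini-Hochberg over all genes kept, threshold 0.05). Log2 CPM used a prior count of 2, and intervals are 95%. Mice were numbered in the order of the sample records, which pairs no mice. No 2 mice of a group held near-identical counts (over 196 pairs, the lowest chi-square divided by its degrees of freedom was 7.57). The study housed its animals singly after the biopsy operation. Whether the liver samples of a group were processed apart is not stated, so p-values measure the spread between these mice.

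The members and gene lists were chosen with earlier results of these data known. Named are all 9 members, up to 3 largest rises and 3 largest falls per list among called genes averaging at least 1 CPM, and the 3 genes most like each member. Tomm40l was added for its overlap with Nr1i3. Some genes that this rule names are not reported here. Listed genes not tested were Cyp3a41a, Dlk1 and Ccl21a (too few reads), and H19, Tf and Trac were not analysed here. Alternatives were DESeq2 1.42.0, its size factors, library totals, 2 filters, the number series as a covariate, a fit of the compared groups alone, leaving out single mice and, added after seeing the data, runs of label numbers as a block. Steps were tested on simulated counts. Figures used matplotlib 3.10.9.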

Additional observations from a re-analysis of the deposited data

Results flagged for a closer look

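In each of the 63 sets of 8 mice (9 factors in 7 groups), the gap between the most extreme mouse and its neighbor on the log2 CPM scale was set against the range by Dixon's test at the 95% level. Of these, 3 exceeded its critical value, and chance exceeds it in about 1 in 20 such sets. Vehicle mouse 2 had 269 CPM of Cebpa against 370 CPM in the next lowest mouse. Vehicle mouse 7 had 44.1 CPM of Nr5a2 against 54.5 CPM in the next lowest. Low-dose semaglutide mouse 6 had 110 CPM of Nr5a2 against 72.8 CPM in the next highest. This mouse also had the highest Hnf4a (843 CPM), Cebpa (642 CPM) and Nr1i3 (105 CPM) of its group, and the lowest summed stellate cell markers (298 CPM against a group median of 872 CPM).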

How the results depend on the processing

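Of the 16 counts of called factors, 5 differed by more than 1.5 times in fits without 1 mouse, with ranges of 0 to 3 for high-dose semaglutide against vehicle, 2 to 5 for high-dose zalfermin against chow, 0 to 1 for the combination against low-dose zalfermin, 1 to 4 against low-dose semaglutide, and 0 to 1 for high-dose against low-dose zalfermin. Library totals without TMM moved the median of all genes by up to 0.458, and gave 2 for high-dose zalfermin and 1 for semaglutide at 120 µg/kg against vehicle, 3 for low-dose semaglutide, 1 for the combination and 2 for high-dose zalfermin against chow, and 1 for the combination against low-dose semaglutide. With only the groups compared, the counts were 1 for high-dose semaglutide against vehicle, 2 for the combination against low-dose zalfermin, 1 against low-dose semaglutide, and 1 for high-dose against low-dose zalfermin. DESeq2 gave 1 for low-dose zalfermin against vehicle and 2 for the combination against low-dose zalfermin, the number series as a covariate 1 for the latter, and no filter beyond 1 read 1 for the combination against low-dose semaglutide. The causes were not tested. The other totals over both directions stayed within 1.5 times, but with library totals the counts lower than chow went from 5 to 3 for low-dose zalfermin and from 4 to 2 for high-dose semaglutide, with 1 factor called higher in each.

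No value that changed sign was called in the fit of all mice, and of those below only Nr1i2 in chow was called once changed. With library totals, log2 fold changes against vehicle became -0.075 (Foxa2), -0.34 (Nr1i2) and -0.30 (Prox1) in chow, -0.047 (Foxa1) and -0.12 (Foxa3) for low-dose zalfermin, -0.099 (Nr1i2) and -0.044 (Prox1) for low-dose semaglutide, -0.065 (Foxa1), -0.16 (Nr1i2) and -0.073 (Prox1) for the combination, and -0.12 (Foxa1), -0.051 (Foxa2) and -0.051 (Cebpa) for high-dose zalfermin. With the number series they became -0.015 (Foxa1) and -0.049 (Foxa3) for low-dose zalfermin, -0.033 (Nr1i2) and -0.065 (Prox1) for low-dose semaglutide, and -0.0093 (Foxa1) for high-dose zalfermin, where Nr1i2 became 0.011 with only both groups. Without 1 mouse, ranges that crossed 0 were -0.1603 to 0.0061 (Foxa2), -0.1115 to 0.1293 (Foxa3) and -0.0843 to 0.0279 (Cebpa) for low-dose zalfermin, -0.164 to 0.0111 (Foxa1), -0.1462 to 0.0608 (Foxa3), -0.1657 to 0.0316 (Cebpa), -0.0613 to 0.0676 (Nr1i2) and -0.0294 to 0.1398 (Prox1) for low-dose semaglutide, -0.1217 to 0.0334 (Cebpa) and -0.0002 to 0.1287 (Nr1i2) for the combination, -0.009 to 0.1427 (Foxa1) and -0.0685 to 0.0605 (Nr1i2) for high-dose zalfermin, and -0.1101 to 0.0391 (Foxa2) for high-dose semaglutide. Foxa1, with 69 reads in its lowest mouse, had the least depth.

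The label numbers run on from group to group, and numbers at most 3 apart form 13 runs. Mice of a run did not all deviate together. Of pairs from different groups, 39 of 114 within a run had a correlation across genes over 0.1 (mean 0.045). Between runs of 1 number series these were 82 of 297 (mean 0.018), and between number series 208 of 933 (mean -0.011). The labels do not state what a run is, and the main fit took no pairing from it. Whether runs pair mice was not tested. Runs as a replicate block, an alternative chosen after seeing the data, gave 0 calls for high-dose semaglutide against vehicle (Hnf4a 0.48, edgeR adjusted p = 0.071, and Nr1i3 0.55, 0.123) and 1 for the combination against low-dose zalfermin (Foxa2). In the other comparisons with vehicle this block added Foxa2 in the combination (0.50) and lost Foxa3 with high-dose zalfermin (0.51, adjusted p = 0.0588), and against chow it lost Hnf4a for the combination, Foxa2 for low-dose semaglutide and Nr1i3 for both high doses and added Nr5a2 for low-dose semaglutide. Uncalled values that changed sign under the block were -0.027 (Prox1) in chow, -0.018 (Foxa1), -0.089 (Foxa3) and 0.066 (Cebpa) for low-dose zalfermin, 0.037 (Cebpa), -0.042 (Nr1i2) and -0.116 (Prox1) for low-dose semaglutide, 0.0085 (Cebpa) and -0.037 (Prox1) for the combination, and -0.011 (Foxa1) for high-dose zalfermin.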

Other observations

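Of 19 partners and coregulators of the 9 factors, 6 were higher and 3 lower in chow than in DIO-MASH vehicle, 2 rose and 1 fell in the combination, 2 rose and 2 fell with high-dose zalfermin, and 0 were called with high-dose semaglutide. Over all genes 26.5% were higher and 28.9% lower in chow and 10% and 10.9% in the combination. With high-dose zalfermin these shares were 8.54% and 8.68%, and with high-dose semaglutide 1.43% and 1%. The counts of this list lay near or below the shares of all genes, so the genes named next are descriptions. Ppargc1a, a coactivator of HNF4α in fasting, rose by 0.78 on the log2 scale in the combination (edgeR adjusted p = 0.000532) and by 0.79 with high-dose zalfermin (adjusted p = 0.000543). The deacetylase Sirt1 rose by 0.38 in the combination and was higher by 0.40 in chow. Rxra, the heterodimer partner of CAR and PXR, was higher by 0.50 in chow and rose by 0.32 with high-dose zalfermin. Ppargc1b was higher by 1.03 in chow. The histone deacetylase Hdac3 had lower levels in chow (-0.27), the combination (-0.39) and high-dose zalfermin (-0.25), and Smarca4, an ATPase of chromatin remodeling, in chow (-0.57) and with high-dose zalfermin (-0.31). Rxrg was lower in chow (-0.65).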
